A study of Mus musculus with 23 samples.

Results

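The nuclear genes for subunits of the oxidative phosphorylation complexes were followed in quadriceps and epididymal fat of mice with and without a pancreatic tumor. Members were taken by symbol: the Ndufa, Ndufb, Ndufc, Ndufs and Ndufv genes of complex I, Sdha to Sdhd of complex II, the Uqcr genes of complex III, the Cox4 to Cox8 genes of complex IV and the Atp5 genes of complex V. The rule found 80 of 12831 genes in quadriceps and 82 of 16962 in fat, 83 genes in all. They were 34 genes of complex I, 4 of complex II, 8 of complex III, 15 of complex V and, with Ndufa4 counted here because its protein sits in complex IV, 15 of complex IV in quadriceps and 17 in fat. The symbols also took in 4 related genes whose products are not core subunits (Atp5s, Atp5sl, Cox7a2l and Ndufa4l2). Cox6a2 was listed only in quadriceps, and Cox6b2, Cox7b2 and Cox8c only in fat. The subunits encoded in mitochondrial DNA were not analysed here.

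The mice were C57BL/6J males, 8 weeks old at surgery. No tumor mice had a sham operation, KPC mice received pancreatic tumor cells in the pancreas, and KPC IL6KO mice received the same line edited in Il6. KPC is a cell line from a pancreatic tumor of a C57BL/6 mouse whose tumor alleles were switched on by Pdx1-Cre, that is, in pancreatic cells. The KPC control cells were 1 clone with Cas9 and a null guide, and the KPC IL6KO cells were 1 clone, so clone and edit cannot be told apart. The hosts were not edited, hence their tissue counts do not check the edit, and all groups were taken when KPC mice showed overt wasting. Quadriceps came from 3 mice without a tumor and 4 in each tumor group, and fat from 4 mice a group. Quadriceps titles number the mice up to 4 and fat titles from 5 to 8, and the sources used here do not say whether both tissues came from the same animals.

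Libraries held 19259763 to 74907810 counts in quadriceps and 26306377 to 56308545 in fat. Members took 2.57% to 2.99% of counts in no tumor quadriceps, 1.40% to 2.19% in KPC and 2.53% to 3.02% in KPC IL6KO, so that the KPC range lay below both others. In fat the share was 0.710% to 1.13%. The lowest count of any member in any library was 21 in quadriceps and 0 in fat. Levels are given as CPM, the counts scaled to a common library size. Quadriceps expressed 10 of 10 fiber markers, summing to 160866-198087 CPM in no tumor, 125491-144294 CPM in KPC, with 183258-199436 CPM in KPC IL6KO. Fat expressed 8 of 8 adipocyte markers (1668-27494 CPM), beside 17 of 18 epididymis markers. The epididymis sum was 111125, 18941, 95092 and 30592 CPM in no tumor mice 5 to 8 and 50409-82342 CPM in KPC. It was 891, 114504, 28251 and 13787 CPM in KPC IL6KO mice 5 to 8. Each mouse of these other groups thus lay above or below the whole KPC range, so that epididymis content differed within and between groups. In whole tissue, fewer cells of a type and less RNA per cell cannot be told apart.

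Oxidative phosphorylation makes most of the ATP of a resting cell. Complexes I and II pass electrons from NADH and succinate to coenzyme Q, complex III passes them to cytochrome c and complex IV to oxygen, and complex V uses the proton gradient built on the way to make ATP. Most subunits are encoded in the nucleus, and some of those of complex IV exist as pairs of isoforms of which one is typical of heart and skeletal muscle.

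The promoters of 4 members are shown because the results turn on them: Sdhd fell with its whole complex in KPC quadriceps, Cox7a1 had the lowest log2 FC of all members, and Cox6a1 and Cox8a are non-muscle isoforms that did not follow their partners. Each is the 250 bases before the annotated start (RefSeq, GRCm38.p6), 5′ to 3′ in the direction of the gene. Sdhd lies at chr9:50603850-50604099 (minus strand), Cox6a1 at chr5:115348959-115349208 (minus strand), Cox7a1 at chr7:30183921-30184170 (plus strand) and Cox8a at chr19:7217617-7217866 (minus strand). Capitals mark matches, on either strand, to the palindromic NRF1 motif, or to the GABP motif CCGGAAG. Both belong to factors known to act on genes of the respiratory chain.
Sdhd: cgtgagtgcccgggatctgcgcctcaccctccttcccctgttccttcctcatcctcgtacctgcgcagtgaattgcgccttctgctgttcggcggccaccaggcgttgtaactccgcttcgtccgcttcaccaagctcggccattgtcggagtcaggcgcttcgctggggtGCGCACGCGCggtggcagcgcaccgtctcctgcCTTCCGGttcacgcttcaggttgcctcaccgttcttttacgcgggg
Cox6a1: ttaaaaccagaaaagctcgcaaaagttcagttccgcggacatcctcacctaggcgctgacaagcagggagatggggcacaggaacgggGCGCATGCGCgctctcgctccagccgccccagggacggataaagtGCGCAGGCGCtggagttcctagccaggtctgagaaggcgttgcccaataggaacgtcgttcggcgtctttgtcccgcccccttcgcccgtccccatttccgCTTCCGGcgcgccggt
Cox7a1: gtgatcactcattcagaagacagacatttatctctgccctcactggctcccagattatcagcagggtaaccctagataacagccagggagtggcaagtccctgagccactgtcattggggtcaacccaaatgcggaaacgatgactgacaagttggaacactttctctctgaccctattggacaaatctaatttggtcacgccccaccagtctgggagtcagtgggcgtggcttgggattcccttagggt
Cox8a: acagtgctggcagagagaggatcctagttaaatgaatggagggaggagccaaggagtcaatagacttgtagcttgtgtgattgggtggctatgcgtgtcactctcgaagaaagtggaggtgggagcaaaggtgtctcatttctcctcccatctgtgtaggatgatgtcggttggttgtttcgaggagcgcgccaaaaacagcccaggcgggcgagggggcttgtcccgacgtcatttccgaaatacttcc

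Sdhd and Cox6a1 held both motifs, and Cox7a1 and Cox8a held neither in this window. The windows of Sdhb, Cox7a2, Cox8b, Ndufc1 and Ndufv3 were also read, are not shown, and held neither motif. Sdhb is of the same complex as Sdhd and fell as well (log2 FC -0.79 in KPC quadriceps). A window was available for 65 of the 83 members. The NRF1 motif was in 12 of them (18.5%) and in 3.74% of all 32851 promoter windows. The GABP motif was in 12 members (18.5%) and in 6.91% of all windows. A member counted if any of its windows held the motif, while the share of all windows counts each window singly. The member and window percentages, here and below, are therefore not like for like. Of the 43 members with a window that fell in KPC quadriceps, 9 held the NRF1 motif and 8 the GABP motif. Searches for ERR (AAGGTCA, 4 members, 6.15% against 4.08% of all windows), an E-box (CACGTG, 5 members, 7.69% against 6.02%), YY1 (AAGATGGCG, 1 member, against 0.606%) and MEF2 (0 members, against 0.14%) gave the remaining counts. The E-box reads the same on both strands and the NRF1 motif nearly so. A match is a description and not a site, and no test was made.

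The first question was whether a KPC tumor went with lower subunit transcripts in muscle. In KPC quadriceps 52 of 80 members fell and 3 rose at a false discovery rate (FDR) of 0.05, and 25 did not pass. Of all genes tested 34.2% fell and 33.4% rose, so that the members' share was high on the lower side and small on the higher side. With a fold change (FC) of at least 1.5 as well, 26 members fell and 0 rose, against 29% and 26.7% of all genes. In 55 members every KPC mouse lay below every no tumor mouse, which held for 33% of all genes. The median log2 FC of the members was -0.42, against -0.03 for all genes, and 72 of 80 log2 FCs were negative. KPC mouse 1 was the lowest of its group in 75 members and KPC mouse 4 the highest in 53.

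Summed over each complex, complex I was at 7314, 7049 and 6765 CPM in the 3 no tumor mice, at 4323, 5475, 5401 and 5850 CPM in the 4 KPC mice and at 6768, 7968, 7266 and 6753 CPM in the 4 KPC IL6KO mice. The KPC mean was 74.7% of no tumor for complex I, 72.8% for complex II, 74.9% for complex III, 84.9% for complex IV and 73.9% for complex V. The KPC IL6KO means were between 98.1% and 102% of no tumor. Only for complex IV did the KPC and no tumor sums overlap, with KPC mouse 3 at 4193 CPM and no tumor mouse 3 at 4167 CPM.

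**Figure D1:**
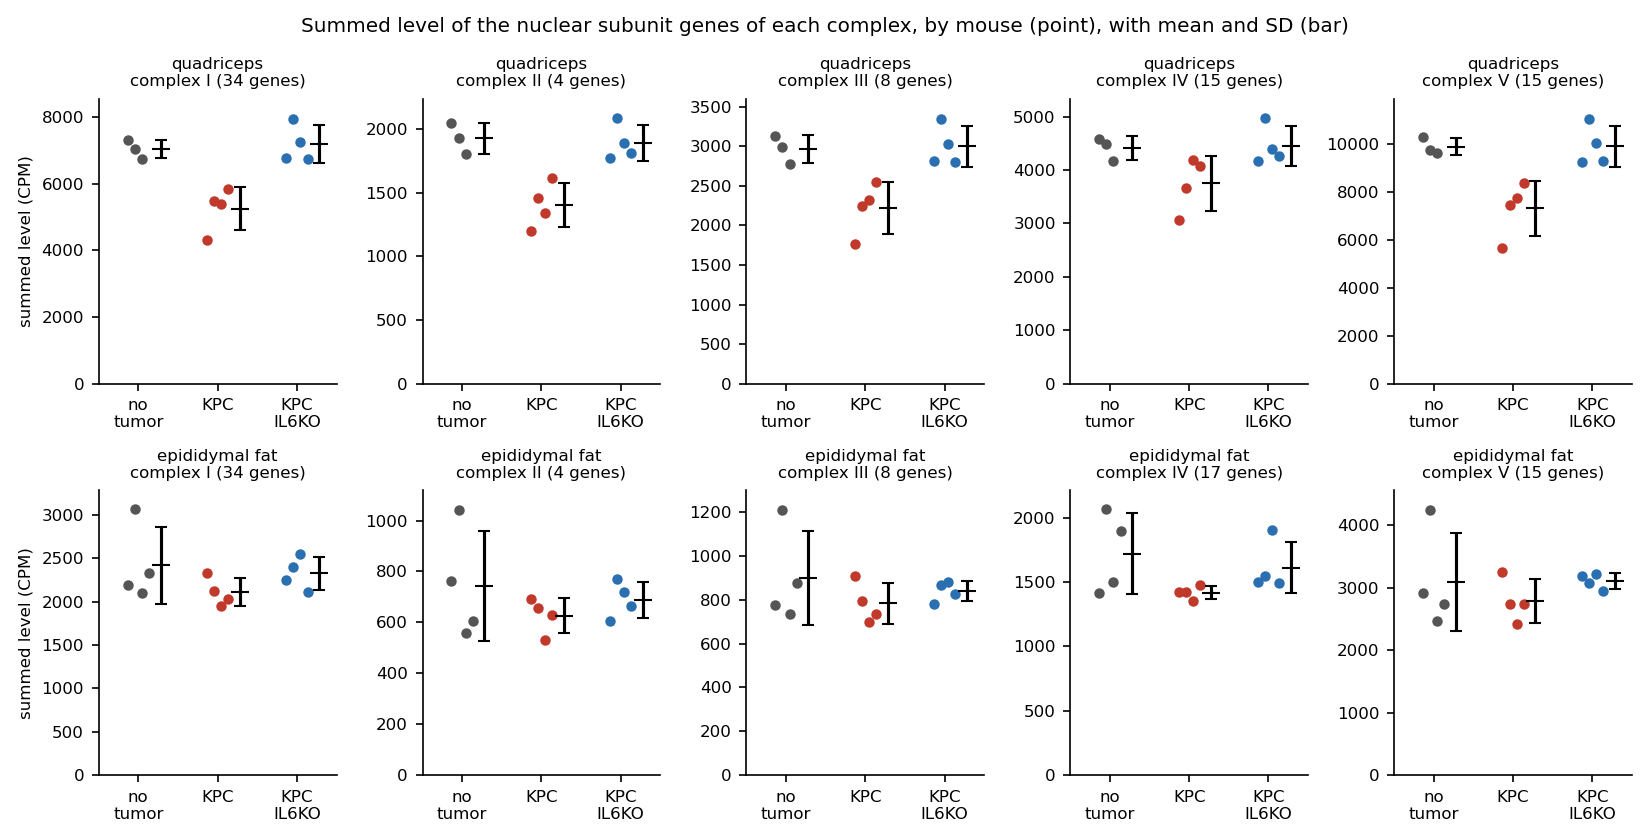
Summed level (CPM) of the nuclear subunit genes of each complex in quadriceps (upper panels) and epididymal fat (lower panels), 1 point a mouse, with the mean and SD of each group as bars. In quadriceps the KPC points lie below no tumor and KPC IL6KO except in complex IV, and in fat KPC overlaps no tumor in every complex, while for complex IV the KPC sums (1353-1479 CPM) lie below those of KPC IL6KO (1493-1908 CPM).

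Complex I, the NADH dehydrogenase, had 24 of 34 members that fell and 0 that rose, 13 of them with an FC of at least 1.5 (median log2 FC -0.53). Ndufb10, a membrane arm accessory subunit, was at 237, 235 and 243 CPM in no tumor, at 95.6, 139, 122 and 147 CPM in KPC, with 215, 266, 219 and 194 CPM in KPC IL6KO. All 4 KPC mice lay below the other 7 mice, and the fall was the largest of the complex (log2 FC -0.92 ± 0.15 SE, FDR 0.000218). Ndufs1, a core iron-sulfur subunit of the arm that takes electrons from NADH, was at 463, 415 and 395 CPM in no tumor and at 182, 261, 222 and 281 CPM in KPC. It was at 390, 462, 420 and 384 CPM in KPC IL6KO. KPC stood apart from both (log2 FC -0.84 ± 0.15 against no tumor, FDR 0.000332).

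Some members of complex I did not pass. Ndufv1, which binds NADH, ranged from 381 to 424 CPM in no tumor mice, against 275, 372, 351 and 435 CPM in KPC (log2 FC -0.19 ± 0.14, FDR 0.257). Ndufa7, an accessory subunit, had the highest log2 FC of the complex (0.16, FDR 0.253), with KPC mouse 3 at 180 CPM and the other 3 KPC mice at 134 CPM. Within complex I the log2 FCs thus ran from -0.92 to 0.16.

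All 4 subunits of complex II, succinate dehydrogenase, fell (median log2 FC -0.62). Sdhb, its iron-sulfur subunit, was at 481, 461 and 399 CPM in no tumor, at 164, 283, 232 and 354 CPM in KPC, with 386, 510, 425 and 391 CPM in KPC IL6KO. Every KPC mouse was below every other mouse (log2 FC -0.79 ± 0.21, FDR 0.00588). Sdhd, a membrane anchor, was at 257, 241 and 235 CPM in no tumor and at 128, 146, 146 and 164 CPM in KPC, with 212 to 252 CPM in KPC IL6KO. The KPC mice were the 4 lowest (log2 FC -0.74 ± 0.11, FDR 9.69e-05). Sdha, the flavoprotein that oxidizes succinate, was at 1015, 953 and 879 CPM in no tumor and at 742, 824, 749 and 870 CPM in KPC. Its groups did not overlap, but KPC mouse 4 and no tumor mouse 3 were 870 and 879 CPM, and the fall was small (log2 FC -0.25 ± 0.10, FDR 0.0461). Without 1 mouse at a time its log2 FC ran from -0.31 to -0.18 and its FDR was above 0.05 without any 1 of 9 of the 11 mice, up to 0.234 without no tumor mouse 1.

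Complex III, which hands electrons to cytochrome c, had 4 of 8 members that fell and 4 that did not pass (median log2 FC -0.29). Uqcrh, the hinge protein, was at 311, 300 and 313 CPM in no tumor and at 146, 198, 209 and 225 CPM in KPC, and it was at 276, 338, 301 and 259 CPM in KPC IL6KO (log2 FC against no tumor -0.66 ± 0.14, FDR 0.00162). Uqcrc1, a core protein of the matrix side, was at 906, 880 and 816 CPM in no tumor and at 411, 603, 505 and 678 CPM in KPC (log2 FC -0.66 ± 0.16, FDR 0.00278). In both, KPC lay below every other mouse. Uqcrfs1, the Rieske iron-sulfur protein that carries electrons within the complex, was at 444, 407 and 390 CPM in no tumor and overlapped KPC at 293, 340, 389 and 405 CPM (log2 FC -0.21, 95% interval -0.49 to 0.07, FDR 0.16). Uqcr10, the highest of the complex per kb of transcript at 491 CPM per kb, overlapped as well, at 220 to 223 CPM in no tumor against 158, 183, 260 and 204 CPM in KPC (log2 FC -0.14, FDR 0.44), where mouse 3 was highest and its omission gave -0.28 (FDR 0.046).

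Complex IV, cytochrome c oxidase, had 8 of 15 members that fell, 2 of them with an FC of at least 1.5 (median log2 FC -0.36). Cox7a1, the heart and muscle isoform of subunit 7a, was at 271, 250 and 232 CPM in no tumor, at 71.2, 128, 90.8 and 157 CPM in KPC, with 245, 309, 254 and 231 CPM in KPC IL6KO. Its 4 KPC mice lay below all others and its log2 FC was the lowest of all members (-1.17 ± 0.22, FDR 0.000685). Cox5a, a subunit on the matrix side, was at 455, 409 and 418 CPM in no tumor against 242, 309, 354 and 361 CPM in KPC (log2 FC -0.43 ± 0.14, FDR 0.0183), and without no tumor mouse 1 its FDR was 0.0865. Cox4i1, the main isoform of subunit 4, was at 603, 615 and 573 CPM in no tumor and at 397, 514, 532 and 601 CPM in KPC, where mouse 4 reached the no tumor range (log2 FC -0.22, 95% interval -0.53 to 0.08, FDR 0.168). Ndufa4 ranged from 338 to 370 CPM in no tumor mice, against 293 to 393 CPM in KPC (log2 FC -0.06, FDR 0.64).

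Complex V, the ATP synthase, had 10 of 15 members that fell and 1 that rose (median log2 FC -0.50). Atp5a1, the alpha subunit of the catalytic head, was at 2560, 2415 and 2467 CPM in no tumor and at 1351, 1799, 1789 and 1986 CPM in KPC, with 2315 to 2809 CPM in KPC IL6KO. KPC was below both without overlap (log2 FC -0.52 ± 0.14, FDR 0.00516). Atp5b, the catalytic beta subunit and the highest member per kb of transcript (1534 CPM per kb), was at 3306, 3160 and 3011 CPM in no tumor and at 1862, 2552, 2645 and 2908 CPM in KPC. The groups did not overlap, yet it missed the threshold (log2 FC -0.34 ± 0.15, FDR 0.0556), which it passed without KPC mouse 3 (FDR 0.049) or 4 (FDR 0.0248). Atp5k, a membrane subunit linked to the pairing of the enzyme, was at 171, 155 and 169 CPM in no tumor and at 63.9, 99.1, 97.6 and 117 CPM in KPC (log2 FC -0.80 ± 0.18, FDR 0.00167). Atp5k has an annotated pseudogene, as do Uqcrh, Atp5l and Atp5c1, so that reads may have been split between copies. Atp5l, another membrane subunit, ranged from 40.6 to 54.9 CPM in no tumor mice, against 35.9 to 60.4 CPM in KPC (log2 FC 0.01, FDR 0.949).

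The 3 members that rose were Atp5g2, Atp5s and Cox7a2l, and none was past an FC of 1.5. Cox7a2l, a related gene whose product is not a core subunit, was at 94.2, 90 and 90.7 CPM in no tumor, at 119, 110, 137 and 118 CPM in KPC, with 85.3, 98.6, 100 and 97.8 CPM in KPC IL6KO. KPC was above both (log2 FC 0.40 ± 0.10, FDR 0.00441). Atp5s, an ATP synthase coupling factor, was at 9.06, 9.54 and 9.02 CPM in no tumor and at 11.2, 12.2, 12.9 and 14.3 CPM in KPC (log2 FC 0.46 ± 0.13, FDR 0.00945). With the library size alone as the scaling, which moved the median of all genes to -0.24, these 3 stayed positive but none passed, at 0.20 for Cox7a2l, 0.26 for Atp5s and 0.15 for Atp5g2. Ndufa4l2, a homolog of Ndufa4 known from low oxygen, fell from 8.17, 9.15 and 6.04 CPM to 2.31, 5.1, 5.01 and 5.51 CPM (log2 FC -0.81 ± 0.26, FDR 0.0162, and 0.0551 or 0.0712 without no tumor mouse 1 or 2).

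**Figure D2:**
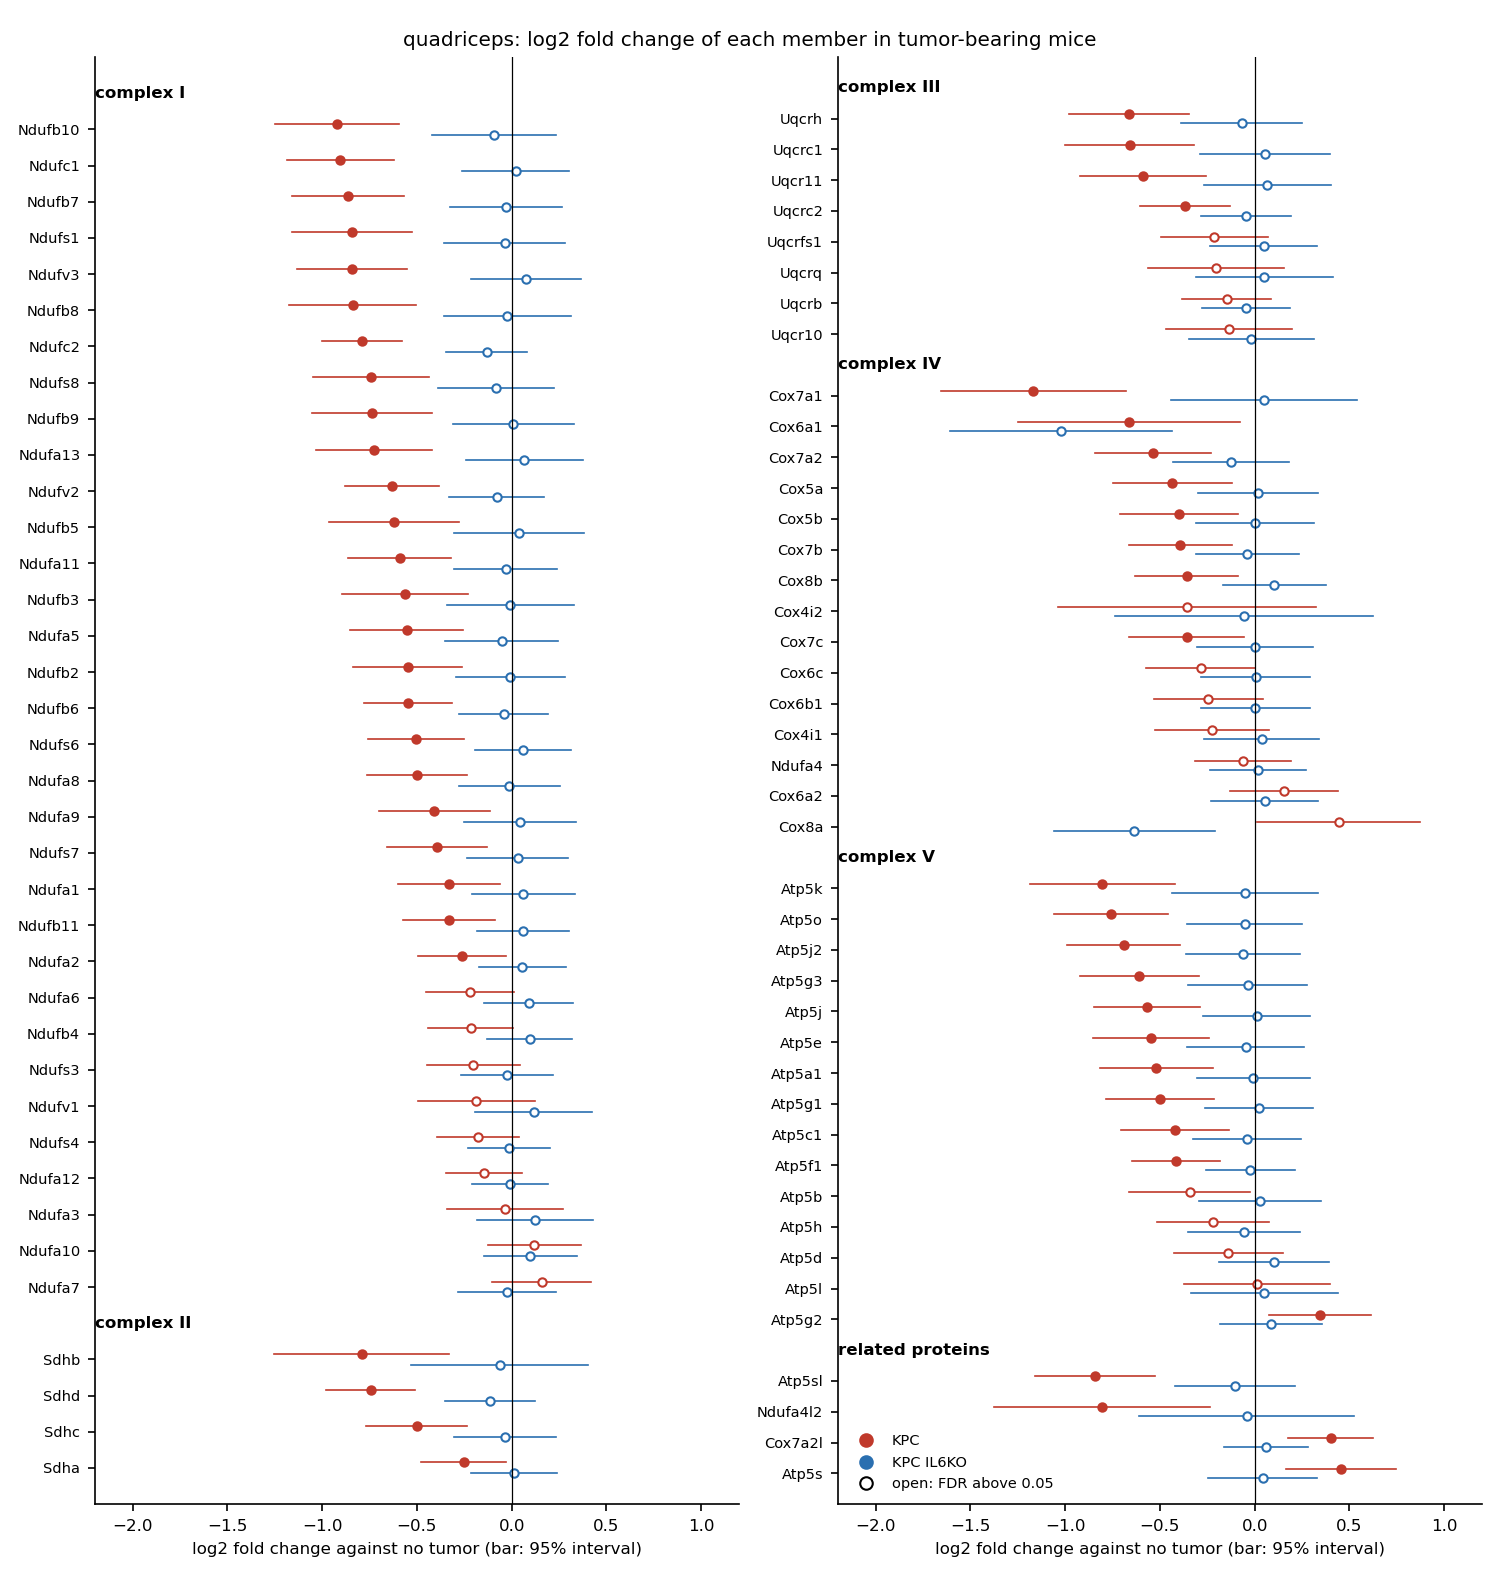
Log2 FC against no tumor of all but 1 of the 80 members in quadriceps, by complex, for KPC and KPC IL6KO, with 95% intervals as bars and filled points for an FDR of at most 0.05. KPC points run from -1.17 (Cox7a1) to 0.46 (Atp5s), while every KPC IL6KO point is open.

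The second question was whether the difference was there when the tumor cells lacked Il6. In KPC IL6KO quadriceps 0 of 80 members passed against no tumor by edgeR's quasi-likelihood test, as did 0% of all genes. At an unadjusted p under 0.05 there were 2 members, both lower (Cox6a1 and Cox8a), against 6.91% of all genes in either direction. Of the 12831 genes 606 were lower and 281 higher at that p. The edgeR likelihood ratio test and DESeq2 each called 1 member, Cox6a1, with an FDR of 0.0393 and 0.0438. The shares of all genes that these tests called are not given here, so the call has no background beside it. The members' median log2 FC was -0.0022, and for 76 of 80 the 95% interval lay within an FC of 1.5 in either direction. Core subunits and Cox7a1 had log2 FCs close to 0, with -0.04 for Ndufs1 (95% interval -0.36 to 0.28), -0.06 for Sdhb (-0.53 to 0.40), -0.01 for Atp5a1 (-0.31 to 0.29) and 0.05 for Cox7a1 (-0.44 to 0.54). KPC IL6KO mouse 2 was the highest of its group in 72 members.

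KPC was then compared with KPC IL6KO directly. In KPC 54 members were lower and 3 higher, against 33.6% and 34.4% of all genes. With an FC of at least 1.5 these were 22 and 1, against 27.3% and 26.4%. In 53 members every KPC mouse was below every KPC IL6KO mouse (30.8% of all genes), and the median log2 FC was -0.42, against -0.01 for all genes. By complex, 26 of 34 members of complex I, 4 of 4 of complex II, 4 of 8 of complex III, 7 of 15 of complex IV and 11 of 15 of complex V were lower. Cox7a1 was again lowest (log2 FC -1.22 ± 0.21, FDR 0.000332). The 3 higher members were Cox8a (1.08 ± 0.18, FDR 0.000284), Cox7a2l (0.34, FDR 0.00683) and Atp5s (0.41, FDR 0.00961). This comparison shares its KPC mice with the first one, so the counts of both are not separate evidence.

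The paired isoforms of complex IV did not move alike in quadriceps. Per kb of transcript, the group mean of the muscle form was the higher of the 7a and 8 pairs in every group. In KPC it was 284 CPM per kb for Cox7a1 against 163 for Cox7a2, and 780 for Cox8b against 116 for Cox8a. Ratios within a library, which no scaling moves, were used to compare the isoforms between groups. These ratios are of raw counts and take no account of transcript length. For subunit 7a, the log2 ratio of Cox7a2 to Cox7a1 was -0.69 ± 0.06 (SD, n = 3) in no tumor, -0.01 ± 0.39 (n = 4) in KPC and -0.86 ± 0.04 (n = 4) in KPC IL6KO. Cox7a2, the broadly expressed form, also fell in KPC, from 160, 158 and 148 CPM to 83, 104, 121 and 121 CPM (log2 FC -0.54 ± 0.14, FDR 0.00492), and the 4 KPC ratios (-0.37 to 0.42) lay above all others. For subunit 8, the log2 ratio of Cox8a to Cox8b was -3.00 ± 0.44 in no tumor, -2.13 ± 0.33 in KPC and -3.68 ± 0.17 in KPC IL6KO. Cox8b, the muscle form, was at 361, 379 and 340 CPM in no tumor and at 223, 291, 306 and 304 CPM in KPC (log2 FC -0.36 ± 0.12, FDR 0.0226), with an FDR of 0.0786 or 0.0816 without no tumor mouse 1 or 2.

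Cox8a, the broadly expressed form, was at 44.1, 64.7 and 31.7 CPM in no tumor, at 69.2, 60.1, 71 and 55 CPM in KPC, with 31.5, 29.4, 32.6 and 27.3 CPM in KPC IL6KO. KPC lay above KPC IL6KO in every mouse but overlapped no tumor (log2 FC 0.44 ± 0.20, FDR 0.0641), and it passed by DESeq2 (FDR 0.0295), with RLE scaling (0.0422) and without no tumor mouse 2 (0.00289) or KPC mouse 4 (0.0492). Cox6a1, the non-muscle form of subunit 6a, was at 35.1, 60.3 and 22.5 CPM in no tumor, at 23, 32.5, 24.2 and 20 CPM in KPC, with 21.6, 18.5, 20.3 and 17.3 CPM in KPC IL6KO. The no tumor mice spread most (log2 FC in KPC -0.66 ± 0.27, FDR 0.0445, with overlap), and without no tumor mouse 2 the log2 FC was -0.21 (FDR 0.408). Its FDR was above 0.05 without any 1 of 9 of the 11 mice. Cox6a2, the muscle form and the highest of the complex per kb of transcript (1242 CPM per kb), was at 836, 797 and 768 CPM in no tumor and at 801, 809, 1094 and 859 CPM in KPC (log2 FC 0.15, 95% interval -0.13 to 0.44, FDR 0.31).

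In no tumor mice these 2 non-muscle isoforms had the same order as adipocyte markers. The summed level of 8 of 8 adipocyte markers was 1071, 2725 and 556 CPM in no tumor mice 1, 2 and 3, in the order of their Cox6a1 and Cox8a levels. In KPC it was 897, 1733, 272 and 155 CPM, an order that neither Cox8a nor Cox6a1 had. Cox6a1 was higher in KPC mouse 3 (24.2 CPM) than in KPC mouse 1 (23 CPM). In KPC IL6KO neither gene had the order of the adipocyte sums. KPC mice 3 and 4 had sums within or below the range of KPC IL6KO (215 to 653 CPM) with Cox8a above every KPC IL6KO mouse. A covariate was chosen after these levels were seen: the mean log2 CPM of the 8 adipocyte markers, which is not their sum. With it Cox6a1 was at a log2 FC of -0.25 (FDR 0.423) and Cox8a at 0.67 (FDR 0.0227) in KPC against no tumor, and 54 members were lower and 2 higher. Slow fiber markers summed to 34.9-243 CPM in no tumor, 25.3-699 CPM in KPC, with 221-631 CPM in KPC IL6KO, macrophage markers (6 of 6) to 89.8-128, 40.3-160 and 97.2-143 CPM, and neutrophil markers (2 of 6) to 0.0512-0.255 CPM in no tumor, 3.19-19.1 CPM in KPC and at most 2.14 CPM in KPC IL6KO. Within the fiber list, Myh2 was at 1720, 1515 and 747 CPM in no tumor and at 90.1, 391, 188 and 1184 CPM in KPC. Mb was at 2381, 2208 and 1465 CPM in no tumor and at 505, 1225, 972 and 2199 CPM in KPC. For each, KPC mouse 1 was lowest and KPC mouse 4 highest of the group. Tnni2 (8749 to 10265 CPM in no tumor, 9842 to 11863 CPM in KPC) and Tnnt3 were not lower in KPC. The part of all these markers in the members' levels was not tested. The macrophage markers did not move alike. Cd68 was higher in KPC (4.16 to 79.5 CPM) than in no tumor (2.9 to 3.69 CPM). Adgre1 was lower (0.489 to 2.16 CPM against 2.93 to 3.89 CPM), and the others overlapped.

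**Figure D3:**
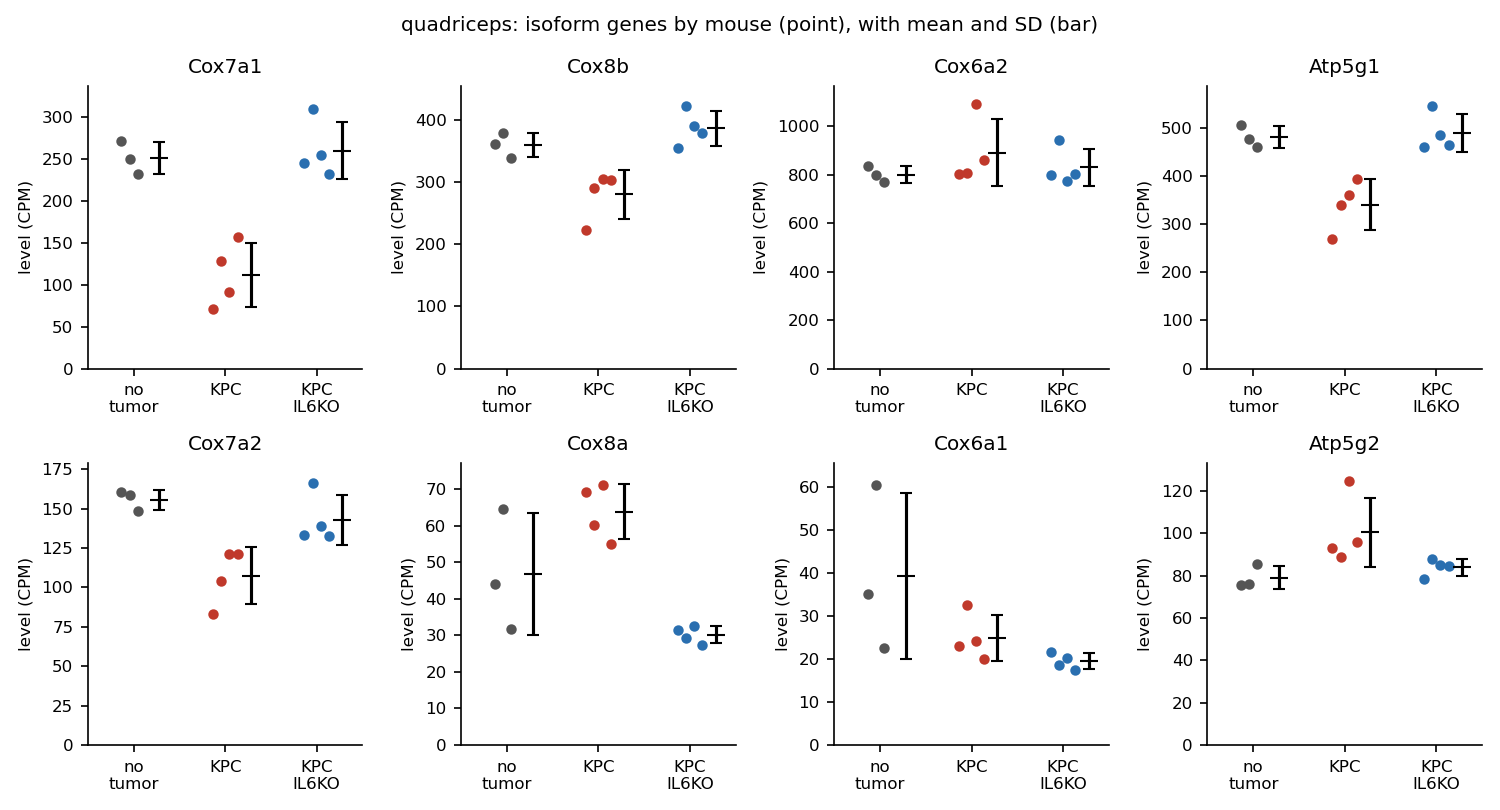
Level (CPM) by mouse of paired isoform genes in quadriceps, with the mean and SD of each group as bars: the muscle forms Cox7a1, Cox8b and Cox6a2 above their partners Cox7a2, Cox8a and Cox6a1, and Atp5g1 above Atp5g2. Cox7a1 drops to 71.2-157 CPM in KPC, while Cox6a2 stays in the range of the other groups apart from 1 mouse.

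**Figure D4:**
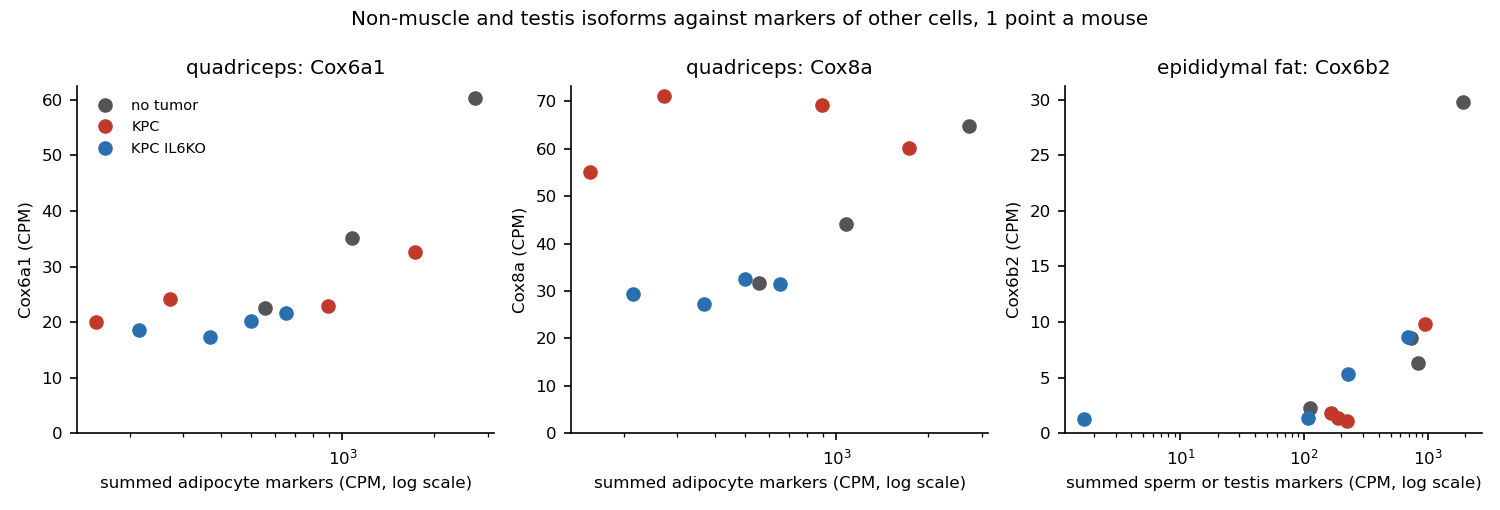
Cox6a1 and Cox8a in quadriceps against the summed adipocyte markers, and Cox6b2 in fat against the summed sperm or testis markers, 1 point a mouse, with a log scale on the x axes and CPM on both. The no tumor mouse with the highest adipocyte sum (2725 CPM) has the highest Cox6a1 level (60.3 CPM), and the highest Cox6b2 level (29.8 CPM) is in the mouse with the highest sperm or testis sum.

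Atp5g1, Atp5g2 and Atp5g3 encode the same mature c subunit of the ATP synthase rotor, each with its own import sequence. Atp5g1 fell (log2 FC -0.50, FDR 0.005) and Atp5g3 fell (log2 FC -0.61, FDR 0.00268). Atp5g2 was at 75.8, 75.9 and 85.6 CPM in no tumor, at 93, 88.6, 125 and 95.9 CPM in KPC, with 78.4, 87.7, 85 and 84.4 CPM in KPC IL6KO, and it rose (log2 FC 0.35 ± 0.12, FDR 0.0261), although its FDR was 0.0705 or 0.0875 without no tumor mouse 1 or 2. Its share of the counts of the 3 genes was 7.45% ± 0.79 (SD, n = 3) in no tumor, 13.2% ± 2.2 (n = 4) in KPC and 7.90% ± 0.43 (n = 4) in KPC IL6KO. Every KPC share was above every share in the other groups, of which the highest was 8.43%.

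Genes that build or feed the complexes were taken from lists of other subunits, assembly factors and coenzyme Q enzymes, to be read against the 34.2% of all genes that fell and the 33.4% that rose. In KPC quadriceps 10 of 15 complex I assembly factors fell and 0 rose (median log2 FC -0.54), 2 of 4 of complex II fell and 1 rose, 3 of 6 of complex III fell, and 2 of 3 of complex V fell. Tmem70, which fell (log2 FC -0.54, FDR 0.000766), is on the lists of complexes I and V and counts in both. Ndufaf5, which modifies a complex I subunit during assembly, went from 43.0 ± 4.8 CPM (SD, n = 3) to 14.1 ± 3.5 CPM (n = 4; log2 FC -1.60, FDR 1.33e-05). Bcs1l, which inserts the Rieske protein into complex III, went from 18.7 ± 1.3 to 5.41 ± 1.69 CPM (log2 FC -1.79, FDR 2.75e-05), beside an Uqcrfs1 transcript that did not pass. Complex IV factors went both ways, with 10 of 22 that fell, such as Taco1, the translational activator of Cox1 (log2 FC -1.62, FDR 6.51e-05), and 6 that rose, such as Coa4 (1.46, FDR 0.00014).

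Cyc1, the cytochrome c1 subunit of complex III that the symbol rule leaves out, went from 501 ± 53 to 233 ± 63 CPM (log2 FC -1.10 ± 0.20, FDR 0.000406). Among 12 other subunits and carriers, 6 fell and 1 rose (median log2 FC -0.18). Of 12 coenzyme Q genes 6 fell, such as Coq7 (log2 FC -1.58, FDR 0.000353), and 2 rose, among them Adck3, from 887 ± 139 to 2040 ± 439 CPM (FDR 0.000176). In KPC IL6KO quadriceps against no tumor, and in every fat comparison, 0 genes of these lists passed edgeR's quasi-likelihood test. At an unadjusted p under 0.05 the lists held 1 gene in KPC IL6KO quadriceps, 6 in KPC fat against no tumor, 0 in KPC IL6KO fat against no tumor and 1 in KPC fat against KPC IL6KO, where the shares over all genes were 6.91%, 12.2%, 9.34% and 6.26%.

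In epididymal fat 0 of 82 members passed in any of the 3 comparisons by edgeR's quasi-likelihood test, as did 0% of all genes in each. For KPC against no tumor, 9 of 82 members had an unadjusted p under 0.05, all lower, against 12.2% of all genes in either direction. Of the 16962 genes 1000 were lower and 1061 higher at that p. In 7 members every KPC mouse lay below every no tumor mouse, against 744 of the 16962 genes. The edgeR likelihood ratio test and DESeq2 each called 1 member, Cox4i2 (FDR 0.0286 and 0.0134), and the shares of all genes that they called are not given here. The median log2 FC was -0.21, against -0.10 for all genes, 72 of 82 were negative, and 29 of 82 intervals lay within an FC of 1.5. For KPC IL6KO against no tumor 0 members had an unadjusted p under 0.05 (9.34% of all genes) and the median was -0.06, which became 0.11 without no tumor mouse 6. For KPC against KPC IL6KO there were 6, all lower (6.26% of all genes in either direction), with a median of -0.16. Of the 16962 genes 930 were lower and 132 higher at that p. In 13 of 82 members every KPC mouse lay below every KPC IL6KO mouse, against 626 of the 16962 genes.

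The KPC means of the summed levels in fat were 87.0%, 84.4%, 87.2%, 82.4% and 90.1% of no tumor for complexes I to V. Complex I was at 2195, 3073, 2097 and 2327 CPM in no tumor mice 5 to 8, at 2329, 2127, 1953 and 2027 CPM in KPC, with 2248, 2400, 2553 and 2107 CPM in KPC IL6KO, so that the groups overlapped. No tumor mouse 6 was the highest of its group in 66 of 82 members and had the highest adipocyte sum (27494 CPM, against 1668 to 9731 CPM in the other 3). The members that were highest per kb of transcript in fat were Atp5b (417 CPM per kb) and Cox4i1 (570 CPM per kb). Atp5b was at 743, 1361, 564 and 731 CPM in no tumor and at 915, 654, 594 and 660 CPM in KPC (log2 FC -0.27, 95% interval -0.92 to 0.38). Cox4i1 was at 349, 541, 421 and 584 CPM in no tumor and at 426, 329, 365 and 453 CPM in KPC (log2 FC -0.27, 95% interval -0.84 to 0.30).

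Low isoforms had the largest differences in fat. Cox4i2, the subunit 4 isoform tied to low oxygen, was at 0.819, 2.73, 0.953 and 1.79 CPM in no tumor, at 0.117, 0.201, 0.539 and 0.163 CPM in KPC, with 0.761, 0.514, 2.35 and 1.01 CPM in KPC IL6KO. All KPC mice were below all no tumor mice (log2 FC -2.62 ± 0.71, FDR 0.234). In the KPC libraries 3 counts were 0.0859 to 0.101 CPM. Cox7a1 was at 1.06, 2.11, 1.19 and 1.85 CPM in no tumor, at 0.146, 0.917, 0.674 and 0.39 CPM in KPC, with 1.5, 1.68, 1.22 and 4.55 CPM in KPC IL6KO (log2 FC in KPC -1.54 ± 0.63, FDR 0.367). KPC lay below both other groups. Skeletal muscle markers (9 of 10) summed to 15.9-293 CPM in no tumor, 10.9-16.1 CPM in KPC, with up to 2567 CPM in KPC IL6KO, with mouse 8 highest, and their part in the Cox7a1 level was not tested.

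Cox6b2, the testis isoform of subunit 6b, was at 2.25, 6.37, 8.56 and 29.8 CPM in no tumor, at 1.11, 1.37, 9.87 and 1.85 CPM in KPC, with 1.33, 1.41, 8.71 and 5.32 CPM in KPC IL6KO (log2 FC in KPC -1.73 ± 0.98, FDR 0.528). Sperm or testis markers (6 of 6) summed to 111, 841, 726 and 1928 CPM in the same no tumor mice, to 224, 189, 951 and 164 CPM in KPC, with 1.67, 108, 687 and 225 CPM in KPC IL6KO. In each group the mouse with the highest marker sum had the highest Cox6b2 level, and the part of these cells was not tested. Cox7b2 and Cox8c, also testis forms, ranged from 0 to 18.3 CPM and from 0 to 34.4 CPM, both highest in no tumor mouse 8, and were picked out after their values were seen. Macrophage markers (6 of 6) summed to 227-878 CPM in no tumor, 942-1328 CPM in KPC, with 366-2489 CPM in KPC IL6KO.

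**Figure D5:**
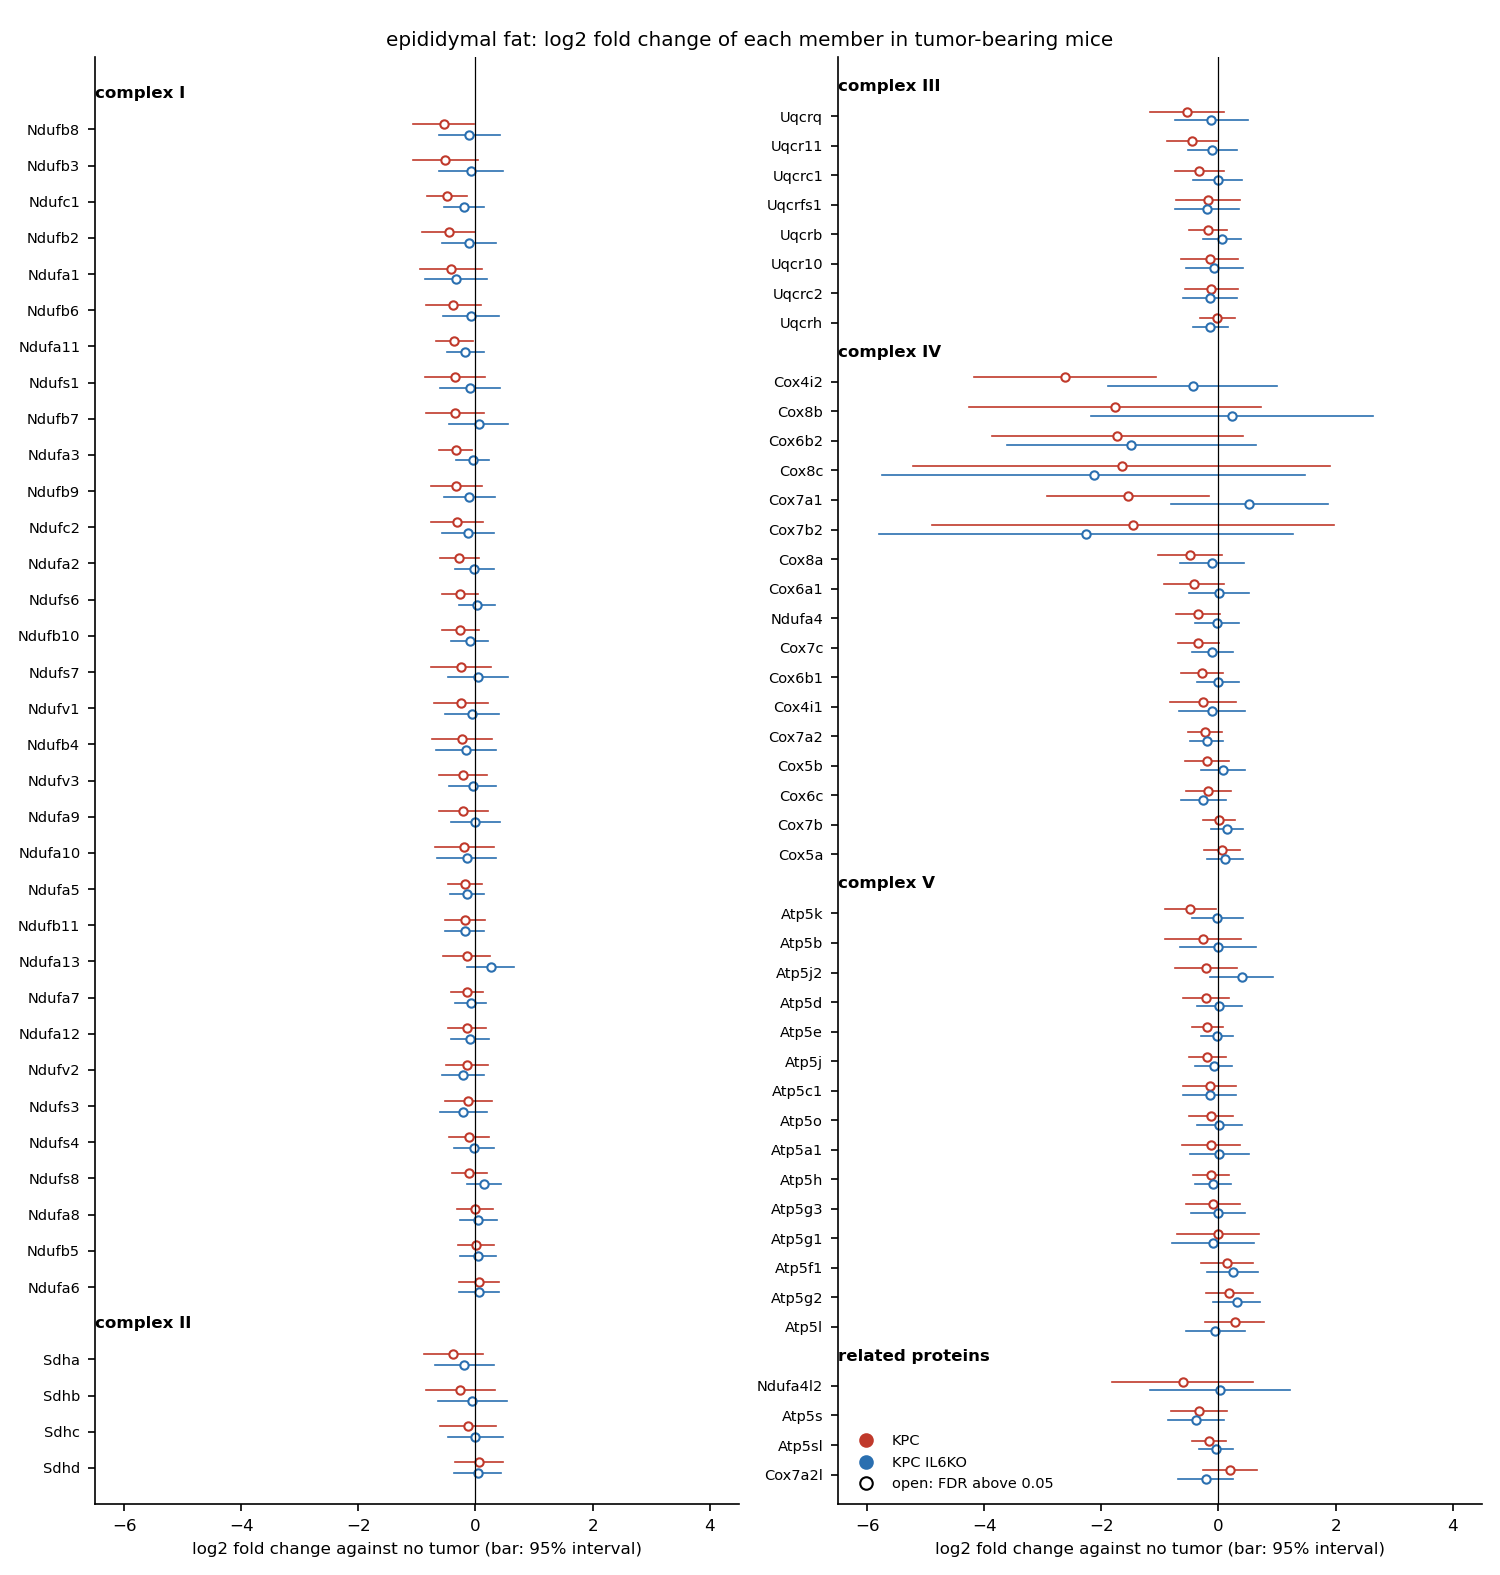
Log2 FC against no tumor of all but 1 of the 82 members in epididymal fat, by complex, for KPC and KPC IL6KO, with 95% intervals as bars. All points are open, since none had an FDR of at most 0.05, and the widest intervals belong to the low isoforms Cox4i2, Cox8b, Cox6b2, Cox8c, Cox7a1 and Cox7b2.

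The effect of KPC against no tumor was then compared between tissues over the 12599 genes in both tables. Of 79 members 16 fell more in quadriceps and 2 went the other way, against 19.3% and 19.2% of all genes. The median difference of log2 FCs was -0.34 (all genes -0.04). The 16 were 8 members of complex I, 1 of complex II, 1 of complex III, 2 of complex IV, 3 of complex V and 1 related gene. For Sdhd the log2 FC was -0.74 in quadriceps and 0.06 in fat (difference -0.92 ± 0.21, FDR 0.00176), for Ndufb10 -0.92 and -0.26 (difference -0.78 ± 0.21, FDR 0.00743) and for Uqcrh -0.66 and -0.02 (difference -0.75 ± 0.19, FDR 0.00378). Differences come from 1 fit over both tissues and so are not exactly those of the separate values. For Cox7a1, with -1.17 and -1.54, the tissues were not shown to differ (difference 0.27 ± 0.59, FDR 0.743). The 2 opposite members were Cox4i2 (2.16 ± 0.76, FDR 0.0302) and Atp5s (0.68, FDR 0.0353). The 16 members are a share close to that of all genes, and the count was 32 without fat no tumor mouse 6, 10 without quadriceps no tumor mouse 1 and 26 with library size alone. The count of 2 was 0 without quadriceps no tumor mouse 3, quadriceps KPC mouse 4, or fat KPC mouse 5 or 8, and 1 without quadriceps no tumor mouse 1, quadriceps KPC mouse 3, or fat no tumor mouse 6, 7 or 8. Per the labels, RNA of the tissues was isolated and sequenced separately, so tissue and that step cannot be told apart. The test took the libraries of both tissues as independent.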

How the data were processed

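RNA of quadriceps (11 mice) and epididymal fat (12 mice) was sequenced as 23 strand-specific paired-end libraries. Per the labels and the submitters' processing notes, the authors aligned reads to mm10 with STAR, assigned unique reads to genes with featureCounts 1.5.1 and deposited raw counts, 1 table a tissue, and used edgeR 3.12.1 themselves. Their strand setting is not given in the sources used here, and 25 of the 83 members overlap another coding gene, whose reads may be shared. The labels and the methods name different library kits. A no tumor muscle sample that the authors set aside was not analysed here.

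From the counts, edgeR 4.0.16 (R 4.3.3) was run with TMM scaling, filterByExpr (which removed 0 genes) and the quasi-likelihood test, with the 3 groups of a tissue in 1 fit and Benjamini-Hochberg FDRs over all genes. Members passed at an FDR of 0.05 or less. SEs and 95% intervals come from the same fit. The difference between tissues came from 1 fit over both. Alternatives were the likelihood ratio test, the newer quasi-likelihood form, DESeq2 1.42.0 and RLE or library size scaling. Others were filters, the groups compared only, a replicate block and leaving out each mouse. Chosen after the data were seen were covariates for the mean log2 CPM of a marker list, adipocytes in quadriceps and epididymis in fat. CPM per kb used the longest principal transcript of GENCODE M21, and promoters were those of RefSeq.

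The code was tested on simulated data. No pair of libraries agreed within sampling noise (lowest chi-square per degree of freedom 28.9). Each library is 1 mouse, so that p-values measure the spread between mice, and 3 counts are taken as the floor, which covers counting error only. The members and gene lists were chosen with earlier results of these data known. Members were named by rule: in each complex and tissue the highest per kb and the highest and lowest log2 FC, paired isoforms, core subunits, and members that passed against the sign of their complex. A member of complex I that this rule names is not reported here singly, although counts, medians and sums include it.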

Additional observations from a re-analysis of the deposited data

Results flagged for a closer look

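In 11 of the 205 groups of 4 mice examined, 1 mouse stood apart by Dixon's criterion, which chance alone gives in about 1 of 20 groups. In quadriceps of KPC IL6KO mice, mouse 2 was high in Cox5a (503 CPM, against 405 to 416 in the others), Cox6a2 (944 CPM, against 775 to 802) and Uqcr10 (251 CPM, against 204 to 212), and mouse 1 was low in Cox7a2l (85.3 CPM, against 97.8 to 100). Among KPC quadriceps, mouse 1 was low in Ndufa4l2 (2.31 CPM, against 5.01 to 5.51) and mouse 3 high in Ndufa7 (180 CPM, against 134 in the others). In fat, KPC mouse 7 was high in Cox6b2 (9.87 CPM, against 1.11 to 1.85). KPC IL6KO fat had a high mouse 8 in Cox7a1 (4.55 CPM, against 1.22 to 1.68), mouse 7 in Uqcr10 (65.9 CPM, against 59.9 to 60.5) and in the sum of complex IV (1908 CPM, against 1493 to 1550), and mouse 6 in Uqcrh (176 CPM, against 143 to 146).

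For 18 members the log2 FC of KPC against no tumor differed between the tissues by the interaction test (edgeR quasi-likelihood, FDR of at most 0.05). Of 79 members 16 fell more in quadriceps and 2 went the other way, against 19.3% and 19.2% of all genes. A difference between tissues was thus not particular to the members. Quadriceps minus fat, the differences were in complex I -0.78 for Ndufb10, -0.75 for Ndufs8, -0.74 for Ndufv3, -0.73 for Ndufb5, -0.69 for Ndufa13, -0.60 for Ndufa8 and Ndufv2 and -0.49 for Ndufa5. They were -0.92 for Sdhd, -0.75 for Uqcrh, -0.60 for Cox5a and -0.52 for Cox7b, and in complex V -0.74 for Atp5o, -0.68 for Atp5f1 and -0.49 for Atp5j. The related gene Atp5sl was at -0.79. Cox4i2 (2.16) and Atp5s (0.68) had the opposite sign.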

How the results depend on the processing

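The excess of lower over higher members in both KPC comparisons of quadriceps held under every alternative run. The medians of KPC IL6KO against no tumor, close to 0 in both tissues, changed sign when 1 mouse was left out, and in quadriceps also by DESeq2 and RLE scaling (0.017) and with only the groups compared (0.0019). The causes of these changes were not tested, apart from the FC of at least 1.5, which is a stricter rule. For KPC against no tumor in quadriceps, 3 higher members became 0 with an FC of at least 1.5 and 0 with library size alone, 52 lower members became 26 with that FC, and the median moved from -0.42 to -0.61 with library size alone. For KPC against KPC IL6KO, 3 higher members became 1 with an FC of at least 1.5 and 1 with library size alone, and 54 lower members became 22 with that FC. The likelihood ratio test and DESeq2 each made 1 lower call in KPC IL6KO quadriceps (Cox6a1) and 1 in KPC fat (Cox4i2), against 0 members by the quasi-likelihood test. In the difference between tissues 16 lower members became 26 and 2 opposite members 1 with library size alone, and these were 1 with a minimum of 10 counts. Without 1 mouse at a time, lower members numbered 37 (without no tumor mouse 1) to 55 and higher ones 2 to 4 in KPC against no tumor, 47 to 59 and 3 to 4 in KPC against KPC IL6KO, and 10 to 32 and 0 to 3 in the difference between tissues. The medians ran from -0.52 to -0.33 and from -0.49 to -0.34 in these quadriceps comparisons, from -0.05 to 0.03 in KPC IL6KO against no tumor, and in fat from -0.30 to -0.10, from -0.14 to 0.11 and from -0.20 to -0.12. With only the groups compared in the fit, KPC against no tumor gave 39 lower and 2 higher members. The numbers of all genes called under these alternatives, the replicate block or the adipocyte covariate are not given here. Apart from the FC of at least 1.5, the member counts of the alternatives thus have no background beside them.

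Same-numbered mice of different groups did not deviate together throughout (correlations -0.155 to 0.265 in quadriceps and -0.539 to 0.65 in fat), so the numbers were not taken as pairs. The replicate block gave 49 lower and 3 higher members in KPC against no tumor and 53 and 3 in KPC against KPC IL6KO. It called 0 in the other 4 comparisons within a tissue.

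Among single members, 8 of the 18 differences between tissues missed the threshold under at least 1 alternative (Atp5f1, Atp5j, Atp5s, Cox4i2, Cox5a, Ndufa13, Ndufa5 and Ndufv2). In KPC against no tumor in quadriceps 48 of 735 recomputed values lost and 17 gained a call, and in KPC against KPC IL6KO 13 of 735 lost and 17 gained one. Signs changed in 10 values of KPC against no tumor, 86 of KPC IL6KO against no tumor and 4 of KPC against KPC IL6KO in quadriceps, and in 29, 75 and 35 values in fat, and every value of changed sign missed the FDR threshold.

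The values of changed sign are log2 FCs, each given with its member.
In quadriceps KPC against no tumor, the sign changed with library size alone to -0.19 (Atp5l), -0.050 (Cox6a2) and -0.046 (Ndufa7), and with a minimum of 10 counts to -0.015 (Atp5l), and with the replicate block to -0.035 (Atp5l), and with the adipocyte covariate to -0.11 (Atp5l).
In quadriceps KPC IL6KO against no tumor, the sign changed with DESeq2 to 0.0020 (Uqcr10) and 0.012 (Atp5a1), and with RLE scaling to 0.0020 (Uqcr10) and 0.012 (Atp5a1), and with library size alone to -0.075 (Cox6b1), -0.066 (Sdha), -0.060 (Ndufa4), -0.058 (Cox5a), -0.053 (Atp5g1), -0.049 (Atp5b), -0.039 (Cox4i1), -0.035 (Atp5s), -0.032 (Atp5l), -0.031 (Uqcrq), -0.030 (Uqcrfs1), -0.029 (Cox7a1), -0.026 (Uqcrc1), -0.024 (Cox6a2), -0.016 (Cox7a2l) and -0.015 (Ndufa1), and with the replicate block to -0.042 (Atp5s), -0.026 (Cox7a1), -0.014 (Cox5a), -0.0086 (Cox6b1), -0.0078 (Sdha), -0.0068 (Atp5g1), -0.0036 (Ndufa4) and -0.0013 (Atp5b), and with the adipocyte covariate to -0.16 (Cox5a), -0.15 (Cox7a1), -0.13 (Cox6b1), -0.12 (Atp5g1), -0.11 (Atp5b), -0.10 (Uqcrfs1, Cox4i1), -0.099 (Uqcrq), -0.071 (Uqcrc1), -0.068 (Ndufa4), -0.066 (Atp5l), -0.053 (Ndufa1, Atp5s), -0.035 (Cox6a2), -0.033 (Sdha), -0.013 (Ndufv1) and -0.0048 (Atp5g2).
In quadriceps KPC against KPC IL6KO, the sign changed with library size alone to -0.026 (Cox6a2).
In fat KPC against no tumor, the sign changed with library size alone to 0.058 (Uqcrh) and 0.10 (Atp5g1), and with a minimum of 10 counts to 0.0082 (Atp5g1), and with the replicate block to 0.016 (Atp5g1), and with only the groups compared to 0.0055 (Uqcrh) and 0.035 (Atp5g1), and with the epididymis covariate to 0.039 (Atp5g3), 0.051 (Uqcr10), 0.077 (Ndufa4l2) and 0.23 (Cox8b).
In fat KPC IL6KO against no tumor, the sign changed with DESeq2 to -0.024 (Cox6a1), -0.015 (Ndufa4l2) and -0.012 (Atp5a1), and with RLE scaling to -0.024 (Cox6a1), -0.013 (Ndufa4l2) and -0.012 (Atp5a1), and with library size alone to 0.013 (Ndufa4), 0.014 (Atp5g3), 0.015 (Uqcrc1), 0.025 (Cox6b1) and 0.028 (Atp5b), and with a minimum of 10 counts to -0.021 (Cox6a1), -0.015 (Ndufa4l2) and -0.0063 (Atp5a1), and with the replicate block to 0.0038 (Ndufa4), 0.011 (Cox6b1), 0.016 (Uqcrc1), 0.018 (Atp5k), 0.024 (Atp5g3), 0.036 (Sdhb) and 0.043 (Atp5b), and with the epididymis covariate to -0.53 (Ndufa4l2), -0.13 (Cox6a1), -0.067 (Atp5a1), -0.058 (Sdhd) and 0.33 (Atp5g1).
In fat KPC against KPC IL6KO, the sign changed with library size alone to 0.029 (Cox7a2), and with the replicate block to -0.018 (Uqcrfs1), and with the epididymis covariate to -0.52 (Atp5g1), -0.16 (Atp5s), 0.011 (Atp5g2), 0.026 (Atp5a1), 0.061 (Ndufv1), 0.070 (Cox8b), 0.091 (Cox5a), 0.093 (Atp5b), 0.097 (Ndufs1), 0.12 (Cox4i1), 0.13 (Sdhb), 0.14 (Atp5g3), 0.25 (Uqcr10), 0.60 (Ndufa4l2) and 0.61 (Cox6b2).
For quadriceps KPC against no tumor, leaving out 1 mouse gave ranges of -0.10 to 0.14 for Atp5l and -0.14 to 0.0024 for Ndufa4.
For quadriceps KPC IL6KO against no tumor, leaving out 1 mouse gave ranges of -0.074 to 0.023 for Atp5a1, -0.018 to 0.063 for Atp5b, -0.033 to 0.056 for Atp5g1, -0.10 to 0.00087 for Atp5g3, -0.066 to 0.14 for Atp5l, -0.052 to 0.099 for Atp5s, -0.024 to 0.078 for Cox4i1, -0.31 to 0.13 for Cox4i2, -0.063 to 0.058 for Cox5a, -0.015 to 0.084 for Cox6a2, -0.053 to 0.042 for Cox6b1, -0.044 to 0.10 for Cox7a1, -0.019 to 0.066 for Ndufa4, -0.19 to 0.089 for Ndufa4l2, -0.055 to 0.014 for Ndufa7, -0.10 to 0.022 for Ndufb8, -0.094 to 0.026 for Ndufs1, -0.040 to 0.057 for Sdha, -0.089 to 0.014 for Uqcr10, -0.0043 to 0.095 for Uqcrc1, -0.018 to 0.096 for Uqcrfs1 and -0.059 to 0.12 for Uqcrq.
For quadriceps KPC against KPC IL6KO, leaving out 1 mouse gave ranges of -0.15 to 0.089 for Atp5l and -0.013 to 0.17 for Cox6a2.
For fat KPC against no tumor, leaving out 1 mouse gave ranges of -0.22 to 0.054 for Atp5a1, -0.42 to 0.055 for Atp5b, -0.21 to 0.19 for Atp5g1, -0.19 to 0.15 for Atp5g3, -0.011 to 0.41 for Atp5l, -0.0067 to 0.15 for Cox5a, -0.44 to 0.12 for Sdhb, -0.040 to 0.23 for Sdhd, -0.29 to 0.082 for Uqcr10, -0.38 to 0.068 for Uqcrfs1 and -0.086 to 0.039 for Uqcrh.
For fat KPC IL6KO against no tumor, leaving out 1 mouse gave ranges of -0.080 to 0.20 for Atp5a1, -0.17 to 0.31 for Atp5b, -0.41 to 0.10 for Atp5g1, -0.11 to 0.24 for Atp5g3, -0.12 to 0.17 for Atp5k, -0.12 to 0.038 for Atp5l, -0.35 to 0.012 for Cox4i1, -0.14 to 0.28 for Cox6a1, -0.10 to 0.15 for Cox6b1, -0.084 to 0.71 for Cox7a1, -0.25 to 0.12 for Cox8a, -0.62 to 1.41 for Cox8b, -0.14 to 0.14 for Ndufa4, -0.25 to 0.50 for Ndufa4l2, -0.17 to 0.030 for Ndufb10, -0.25 to 0.17 for Ndufb8, -0.26 to 0.20 for Ndufs1, -0.16 to 0.18 for Ndufv1, -0.23 to 0.33 for Sdhb, -0.067 to 0.21 for Sdhd, -0.21 to 0.16 for Uqcr10, -0.13 to 0.22 for Uqcrc1, -0.33 to 0.053 for Uqcrfs1 and -0.34 to 0.14 for Uqcrq.
For fat KPC against KPC IL6KO, leaving out 1 mouse gave ranges of -0.0071 to 0.40 for Atp5g1, -0.22 to 0.062 for Atp5g2, -0.097 to 0.18 for Atp5s, -0.28 to 0.10 for Cox4i1, -1.53 to 0.47 for Cox6b2, -0.083 to 0.042 for Cox7a2, -0.30 to 0.12 for Ndufa1, -0.14 to 0.0022 for Ndufa7, -0.052 to 0.12 for Sdhd and -0.19 to 0.13 for Uqcrfs1.

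Precision was limited by the spread between mice, with a biological coefficient of variation of 22.7% in quadriceps and 63.5% in fat.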
